A study of Arabidopsis thaliana and Boechera depauperata with 12 samples.

Results

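The mitochondria-encoded genes of *A. thaliana* were taken as all rows of its count table with identifiers that start with ATMG. There were 152 such rows among 33977. Of these, 38 are coding genes or gene pieces of known function, 3 are the rRNA genes and 111 are other rows, mostly ORFs. The reference annotation (TAIR10.1) describes 17 of the 41 identifiers of known function through notes on their nuclear matches. The other 24 names (for example *NAD4L*, *COX1*, *COX2* and the rRNA genes) follow the usual names of these identifiers, which the count table itself does not give. All 38 coding genes and the 3 rRNA genes had at least 10 counts in every library. Of the other rows, 37 did so and 6 had no count in any library.

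The mitochondrial genome of a flowering plant encodes only a small part of the organelle. It holds core subunits of respiratory complexes I, III and IV and of ATP synthase, proteins that attach haem to cytochrome *c*, some ribosomal proteins, a maturase that acts on introns, the ribosomal RNAs (rRNAs) and transfer RNAs, and many open reading frames (ORFs) without a known function. The other subunits of the same complexes are encoded in the nucleus and imported. Mitochondrial transcripts are made by phage-type RNA polymerases, spliced (some in trans, from separate pieces), edited from C to U and trimmed at their ends by ribonucleases. In plants, RNA stability is known to have a large part in setting the level of each transcript.

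The 6 *A. thaliana* libraries, of 12 in the series, came from control plants kept at 22 °C (W1 and W2), from plants given basal heat stress (B/HS, 38 °C for 3 h; W3 and W4) and from plants given acquired heat stress (A/HS, 38 °C for 1 h, a recovery of 1 h at 22 °C and 43 °C for 3 h; W5 and W6). B/HS plants had no milder heat first, and the labels give no genotype. The replicates were grown independently from germination. The libraries held between 11819511 and 15297546 counts, of which 55.6 to 73.3 % were on chloroplast rows and 25.1 to 41.9 % on nuclear rows. The labels give the tissue as root. All 8 leaf markers listed for the check had counts in every library and summed to between 55493 and 111543 counts. The 8 root markers summed to between 575 and 4090 counts, and 1 of them, *TIP2-3*, was at 0 in the control and B/HS libraries. The sums of both lists moved with the treatment. Leaf markers were 2.71 and 2.34 % of nuclear counts in controls and 1.12 to 1.68 % after heat, and root markers 0.0702 and 0.0858 % in controls and 0.0109 to 0.0268 % after heat. The largest part of the leaf sum was *RBCS1A*, with 39698 and 46895 counts in controls and 20426 to 29995 after heat. In the TMM fit described below, 1 of the 8 leaf markers fell after B/HS (19.7 % of all genes) and 4 after A/HS (17.6 %). None rose, and their median log2 fold changes were −0.02 and −0.64. The root sum was mostly *PYK10*, with 2033 and 3872 counts in controls, 556 and 728 after B/HS and 445 and 1117 after A/HS. *SCR* fell too, whereas *NRT2.1* had 27 and 41, then 8 and 13, and then 71 and 73 counts. The other root markers had at most 38 counts in any library. The part of the markers in the mitochondrial changes was not tested. The levels of the markers went against the label, and the tissue is not named further here.

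Many of these genes have a second home. A block of mitochondrial DNA lies in chromosome 2 of *A. thaliana*, and each mitochondrial coding or rRNA sequence of the reference (RefSeq, TAIR10.1) was compared with the nuclear chromosomes. Of 36 sequences, 22 matched nuclear DNA at 99 % or more of their bases and 17 were identical to it. The sequences of *rps12* and *ccmC* are shown because the pairs carry this point for a ribosomal protein and for a gene that was called below. The first 120 bases of the coding sequence are given, from MT:288446-288565 (plus strand) and chr2:3270410-3270529 (plus strand, gene AT2G07675) for *rps12*, and from MT:308298-308417 (plus strand) and chr2:3240344-3240463 (minus strand, gene AT2G07771) for *ccmC*. A capital would mark a base that differs within a pair, and there is none in these stretches or in the whole coding sequences of 378 and 771 bases.
rps12: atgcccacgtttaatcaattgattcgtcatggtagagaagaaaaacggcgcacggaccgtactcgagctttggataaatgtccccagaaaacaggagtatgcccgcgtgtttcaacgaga
AT2G07675: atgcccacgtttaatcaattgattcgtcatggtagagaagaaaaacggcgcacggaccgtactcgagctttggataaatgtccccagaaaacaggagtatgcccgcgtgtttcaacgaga
ccmC: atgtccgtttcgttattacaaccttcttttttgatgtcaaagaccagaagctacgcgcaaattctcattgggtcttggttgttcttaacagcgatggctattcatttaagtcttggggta
AT2G07771: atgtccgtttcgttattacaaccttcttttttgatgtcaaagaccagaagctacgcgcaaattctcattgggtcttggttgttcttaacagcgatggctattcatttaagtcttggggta

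The ORF behind the largest rise described below is shown for the same reason. The nuclear gene AT2G07722 (chr2:3438742-3439161, plus strand) is annotated as best matching ATMG00620. It matched the mitochondrial genome in 419 of 420 bases at each of 2 places, which RefSeq marks as ORF139A (MT:363-782, minus strand) and ORF139B (MT:194560-194979, minus strand). The first 120 bases of each are given, and the capital marks the single base that differs between the mitochondrial and the nuclear sequence.
ORF139A: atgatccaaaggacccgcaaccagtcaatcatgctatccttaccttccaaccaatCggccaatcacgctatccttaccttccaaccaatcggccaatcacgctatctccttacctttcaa
ORF139B: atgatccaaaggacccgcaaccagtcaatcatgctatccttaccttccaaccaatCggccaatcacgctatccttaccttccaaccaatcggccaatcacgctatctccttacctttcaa
AT2G07722: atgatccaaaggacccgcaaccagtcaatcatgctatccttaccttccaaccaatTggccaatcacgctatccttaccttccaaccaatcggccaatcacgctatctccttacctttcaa

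For part of the rows, the counts followed these copies closely. *RPS12* (ATMG00980) had 451, 739, 595, 707, 803 and 807 counts in W1 to W6, and AT2G07675 had 452, 741, 597, 706, 804 and 807. ATMG00170 and ATMG00620 had the same count in each of the 6 libraries, as had ATMG00430 and ATMG01150. ATMG09450 and ATMG09730 differed by 1 count at most. Among 20 known-function rows paired with a nuclear gene that overlaps their copy, 10 had a nuclear count between 0.5 and 2 times their own in every library. The lowest nuclear counts for their row were those of *CCMFN1* (ATMG00830), with 83 counts in W1 where AT2G07627 had 2, and of *MATR* (ATMG00520), with 678 in W4 where AT2G07642 had 19. The highest was that of *COB* (ATMG00220), with 128 in W2 where AT2G07727 had 673. Reads from such a gene and from its nuclear copy cannot be told apart in these counts, so the values below belong to the sequence, wherever it was transcribed. Of the 38 coding rows, 8 had a nuclear match under 50 % (*COX1*, *COX2*, *NAD4L*, *NAD9*, *ATP4*, *CCMB*, *RPS3* and *RPL16*), and these serve as the comparison.

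**Figure D1:**
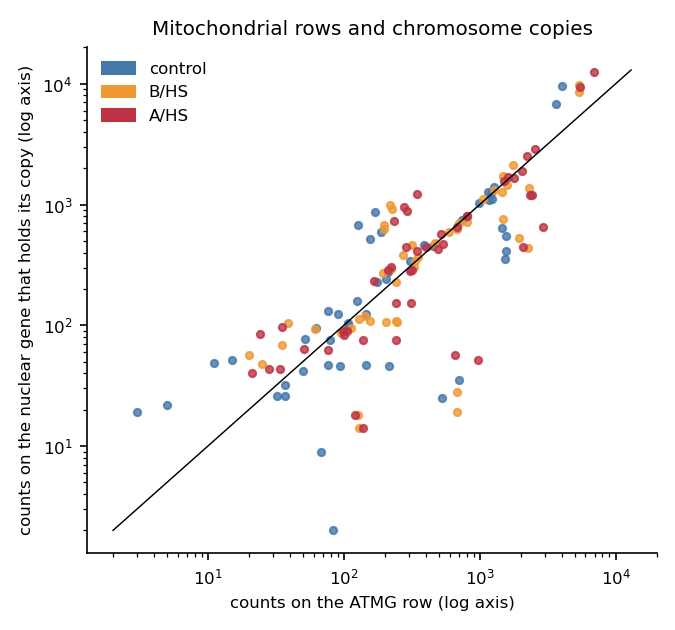
Counts on mitochondrial rows (x axis, log scale) against counts on the nuclear gene that holds the copy (y axis, log scale), 1 point per pair and library, coloured by condition. The line marks equal counts, and *RPS12* lies on it with a difference of 2 counts at most.

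Mitochondrial rows took a larger share of all counts after heat. The share was 1.61 and 1.54 % in the control libraries, 1.96 and 1.77 % after B/HS and 2.25 and 2.55 % after A/HS. The means were 1.58 % ± 0.0476 (SD, n = 2), 1.86 % ± 0.137 (SD, n = 2) and 2.40 % ± 0.210 (SD, n = 2), and no library of one condition overlapped those of another. An exact permutation test of 2 libraries against 2 cannot go below a two-sided *P*-value of 0.33, so these shares are described without a test. Coding genes of known function showed the same order, with 0.146 and 0.143 % of all counts in controls, 0.202 and 0.193 % after B/HS and 0.218 and 0.247 % after A/HS. The order depended on the chloroplast counts in the denominator. Without chloroplast rows, mitochondrial rows took 6.03 and 3.97 % in the controls, 4.52 and 4.48 % after B/HS and 6.11 and 5.73 % after A/HS. There, the controls spanned both B/HS libraries and overlapped the A/HS range. Coding genes took 0.580 and 0.381 % of coding plus nuclear counts in controls, 0.485 and 0.509 % after B/HS and 0.628 and 0.586 % after A/HS. For them, the controls again spanned both B/HS libraries, and both A/HS libraries lay above the controls, W6 by little. The part of the chloroplast share in the rise was not tested. In bulk RNA, more mitochondria or cells rich in them and more mitochondrial RNA per cell cannot be told apart.

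The ribosomal RNAs dominated every library. *RRN26* (ATMG00020), *RRN18* (ATMG01390) and *RRN5* (ATMG01380), the RNAs of the mitochondrial ribosome, took 81.1 to 83.4 % of the mitochondrial counts, and the 38 coding rows took 9.09 to 10.9 %. For each count on coding rows there were 9.01 and 9.01 rRNA counts in the controls, 7.93 and 7.43 after B/HS and 8.46 and 8.42 after A/HS. The control ratio was thus above both heat conditions, and the B/HS ratio was the lowest, without overlap. The ratio of *RRN18* to *RRN26* counts was 3.99 and 3.98 in controls, 3.65 and 2.95 after B/HS and 3.29 and 3.89 after A/HS, so both controls were above every heat library, by little in the case of W6. How rRNA was treated in the library preparation is not given in the sources used here.

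**Figure D2:**
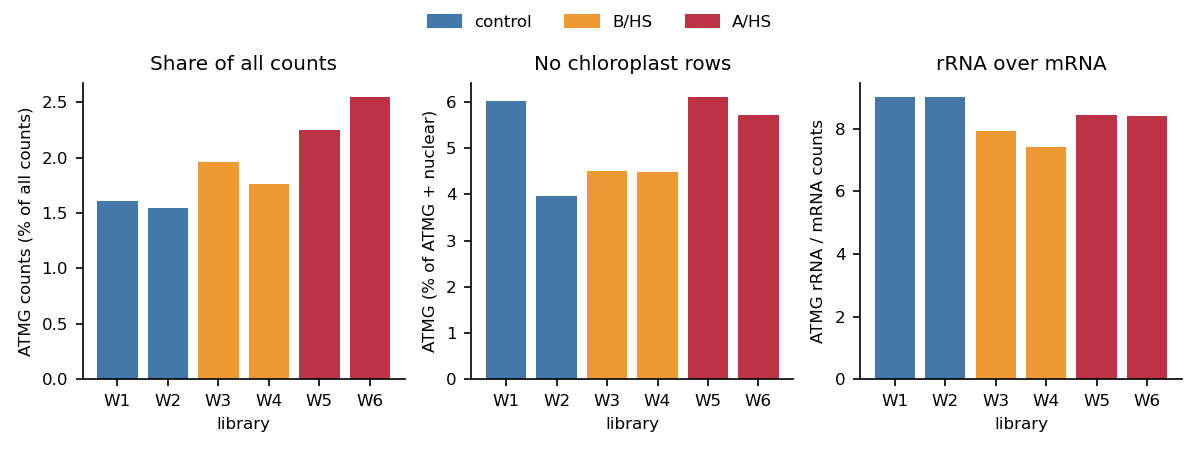
Bars show 1 library each, coloured by condition. The left panel gives mitochondrial counts as a percentage of all counts, the middle panel gives them as a percentage of mitochondrial plus nuclear counts, and the right panel gives the ratio of rRNA to coding counts. The rise from control (1.54 and 1.61 %) to A/HS (2.25 and 2.55 %) on the left is smaller in the middle, where W1 (6.03 %) lies within the A/HS range of 5.73 to 6.11 %.

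To see how single genes moved against the whole transcriptome, all genes were fitted with edgeR's quasi-likelihood test after TMM scaling, which sets libraries to a common scale from the bulk of the genes. Of the 152 mitochondrial rows, 104 passed the filter on low counts among 17669 genes tested, and 48 were not tested. After B/HS, 55 of the 104 rows rose with a *P*-value under 0.05 after Benjamini–Hochberg adjustment, against 20.0 % of all genes tested, and 3 fell, against 19.7 %. The median log2 fold change was 0.79 over the mitochondrial rows and −0.02 over all genes. After A/HS, 50 rows rose (18.3 % of all genes) and 2 fell (17.6 %), with a median of 0.79. With a threshold of 4-fold added, 16 rows rose after B/HS (3.76 % of all genes) and 3 fell (4.92 %). After A/HS 5 rose (2.92 %) and 2 fell (3.67 %). Both comparisons use the same control libraries. Of the 104 tested rows, 26 had under 10 counts in some library. The 78 rows above that level in every library gave 40 rises and no fall after B/HS and 41 rises and no fall after A/HS. With the 4-fold threshold, 5 and 2 of these 78 rose and none fell.

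These numbers rested on the control libraries, which differed from each other. The TMM factors of W1 and W2 were 0.832 and 1.33. Without W1, 74 mitochondrial rows rose after B/HS and 56 after A/HS. Without W2, 26 rose after B/HS and 21 after A/HS, and the median log2 fold changes were 0.54 and 0.48. Without W3, 35 rose after B/HS. The medians stayed above 0, whereas the number of calls moved with the library left out.

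All 38 coding genes had a positive log2 fold change on this scale in both comparisons, and under every other scaling tried. Without W2, 4 of them were below 0 in each comparison (lowest −0.25 after B/HS and −0.22 after A/HS), and without W3 1 was after B/HS (−0.07). After B/HS 21 of them rose, against 20.0 % of all genes tested (median 0.71, range 0.21 to 1.91). After A/HS 23 rose, against 18.3 % (median 0.77, range 0.27 to 1.48). In complex I, which takes electrons from NADH, 10 of 14 rows rose after B/HS and 12 of 14 after A/HS. Of these 14 rows, 8 are pieces of the trans-spliced *nad1*, *nad2* and *nad5* transcripts, so the rows are not all separate genes. Of the 5 genes of cytochrome *c* maturation, 4 rose after B/HS and 3 after A/HS. Of the 3 subunits of cytochrome *c* oxidase, complex IV, 2 and 3 rose. Among 6 ATP synthase genes, 2 and 4 rose. Among 7 ribosomal protein genes, 2 rose after B/HS and none after A/HS, where their median was 0.52. With groups this small, the B/HS counts of the ATP synthase and ribosomal protein genes were near the share over all genes. For the ribosomal protein genes after A/HS, edgeR gave 4 genes with an unadjusted *P*-value under 0.05 and DESeq2 gave 3, with none called. The 8 genes with a nuclear match under 50 % had medians of 0.75 and 0.72, with 6 and 5 rises. The 23 rows with a match of 99 % or more had medians of 0.67 and 0.67, with 11 rises each.

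The counts of a few genes show the pattern. *ATP8* (ATMG00480), a membrane subunit of ATP synthase, had 107 and 108 counts in controls, 244 and 331 after B/HS and 317 and 305 after A/HS. All 4 heat libraries lay above both controls, and its log2 fold change was 1.57 (SE 0.23, adjusted *P* = 0.00014 by edgeR) after B/HS and 1.48 (SE 0.23, adjusted *P* = 0.00028 by edgeR) after A/HS. *NAD4L* (ATMG00650), a complex I subunit without a full nuclear copy, had 106 and 124 counts, then 259 and 272, and then 324 and 277. It rose by 1.39 and 1.35 on the log2 scale (SE 0.21 for each, adjusted *P* = 0.00018 and 0.00028 by edgeR). *COX2* (ATMG00160), the oxidase subunit that receives electrons from cytochrome *c*, had 141 and 172, then 298 and 346, and then 364 and 311 counts. It also separated fully, with log2 fold changes of 1.22 and 1.07 (SE 0.20 and 0.19). At the other end, *RPS4* (ATMG00290), a protein of the small ribosomal subunit, had 1206 and 990, then 1265 and 1063, and then 1620 and 1503 counts. Its log2 fold changes of 0.21 and 0.40 did not pass the test. *MATR* (ATMG00520), the maturase, had 0.25 and 0.27, which did not pass either. Among the rRNAs, *RRN26* (0.59 and 0.70) and *RRN18* (0.31 and 0.54) did not pass, and *RRN5* rose by 1.41 and 1.74.

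To see which transcripts moved against one another, every gene was also fitted with the total of the 38 coding rows as the library size. On this scale, the 104 mitochondrial rows had a median of 0.15 (B/HS) and 0.12 (A/HS). In B/HS, 17 rows rose, against 4.60 % of all genes, and 3 fell, against 32.1 %. After A/HS 4 rose (3.08 % of all genes) and 4 fell (32.2 %). With the 4-fold threshold, 4 rose (1.63 %) and 3 fell (11.8 %) after B/HS, and none rose (1.32 %) and 3 fell (10.1 %) after A/HS. Among the 78 rows with at least 10 counts in every library, 9 rose and none fell after B/HS, and 3 rose and 1 fell after A/HS. The many falls and few rises among all genes follow from the denominator, since all genes had a median of −0.71 (B/HS) and −0.74 (A/HS). The coding rows are centred near 0 by this scaling, so the shares over all genes are a limited yardstick for mitochondrial rows here. Single libraries decided part of these numbers: without W3 2 rows rose after B/HS and without W4 5 did, and after A/HS 9 rose without W2 and none without W6. The spread is estimated over all genes, and the common coefficient of biological variation was 0.270 here against 0.166 on the TMM scale. Standard errors of the well-counted mitochondrial genes were therefore close to 0.39 on the log2 scale.

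The coding pool was described by the share of each group. ATP synthase genes took 40.4 to 42.7 % of the coding counts over the 6 libraries. Complex I took 22.9 and 24.2 % in controls, 24.5 and 25.6 % after B/HS and 26.7 and 25.7 % after A/HS. The cytochrome *c* maturation genes took 2.20 and 2.08 % in controls, 3.03 and 2.89 % after B/HS and 2.24 and 2.51 % after A/HS, so both B/HS libraries were the highest. Ribosomal protein genes took 16.8 and 16.8 % in controls, 16.6 and 13.7 % after B/HS and 14.6 and 14.3 % after A/HS, so both controls were above every heat library. Of the 38 genes, 2 rose after B/HS (5.26 %, against 4.60 % of all genes) and none after A/HS (3.08 % of all genes), relative to mitochondrial mRNA. None fell in either, against 32.1 and 32.2 % of all genes. The log2 fold changes of the 38 genes ran from −0.36 to 1.25 after B/HS and from −0.36 to 0.78 after A/HS. *ATP8* was the highest after A/HS. It took 0.567 and 0.593 % in controls, 1.02 and 1.21 % after B/HS and 0.949 and 1.04 % after A/HS. The spread on this scale is estimated over all genes, so a change of this size could go uncalled. For A/HS none of the 38 had an unadjusted *P*-value under 0.05 in edgeR, and DESeq2 called none, with 1 under 0.05 unadjusted.

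*ATP1* (ATMG01190), the alpha subunit of the catalytic head, was the most counted coding gene, with 18.8 to 22.4 % of the coding counts in all libraries and log2 fold changes of 0.02 and −0.07 (SE 0.40 for each). Per length, among the 30 coding rows with a known coding length (the 8 pieces of trans-spliced *nad* genes have none), *ATP9* (ATMG01080), which forms the rotor ring, was the highest, with 291 counts per kilobase and 1000 coding counts in controls, 281 after B/HS and 341 after A/HS. *ATP1* followed with 136, 138 and 130. The lowest was *RPS7* (ATMG01270), with 1.57, 2.53 and 2.09. *COX1* (ATMG01360), the catalytic oxidase subunit, stood at 27.2, 28.6 and 26.3.

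The 2 coding genes called after B/HS, a number near the share over all genes, both belong to cytochrome *c* maturation. *CCMC* (ATMG00900), which delivers haem, took 0.170 and 0.203 % of the coding counts in controls, 0.415 and 0.475 % after B/HS and 0.230 and 0.339 % after A/HS. On the log2 scale *CCMC* had 1.25 in B/HS (SE 0.46, adjusted *P* = 0.021 by edgeR) and 0.61 in A/HS (SE 0.46, adjusted *P* = 0.29 by edgeR). *CCMFN2* (ATMG00960), a part of the haem ligase, took 0.265 and 0.203 %, then 0.469 and 0.523 %, and then 0.314 and 0.346 %. It had 1.08 after B/HS (SE 0.45, adjusted *P* = 0.044 by edgeR) and 0.49 after A/HS (SE 0.45, adjusted *P* = 0.39 by edgeR). For both genes every heat library was above both controls. The call of *CCMC* held in 8 of 13 alternatives and that of *CCMFN2* in 4 of 13. Leaving out any 1 of W3 to W6 ended both calls, with log2 fold changes from 1.15 to 1.35 for *CCMC* and from 1.00 to 1.16 for *CCMFN2*. The other genes of this group did not pass: *CCMFC* 0.25, *CCMFN1* 0.30 and *CCMB* −0.09 after B/HS. Both called genes have a nuclear copy, as have *CCMFC* and *CCMFN1*, whereas *CCMB* has no match of 50 %. AT2G07771, which overlaps the copy of *CCMC*, had 26 and 26, then 90 and 112, and then 62 and 90 counts. *RRN5* was the single rRNA past the test on this scale, with 1.01 after A/HS (SE 0.42, adjusted *P* = 0.049 by edgeR). That call held in 1 of 13 alternatives and was lost whichever library was left out. *RRN5* had 284 counts in W6 against 132 in W5, and its log2 fold change ran from 0.22 without W6 to 1.52 without W5.

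**Figure D3:**
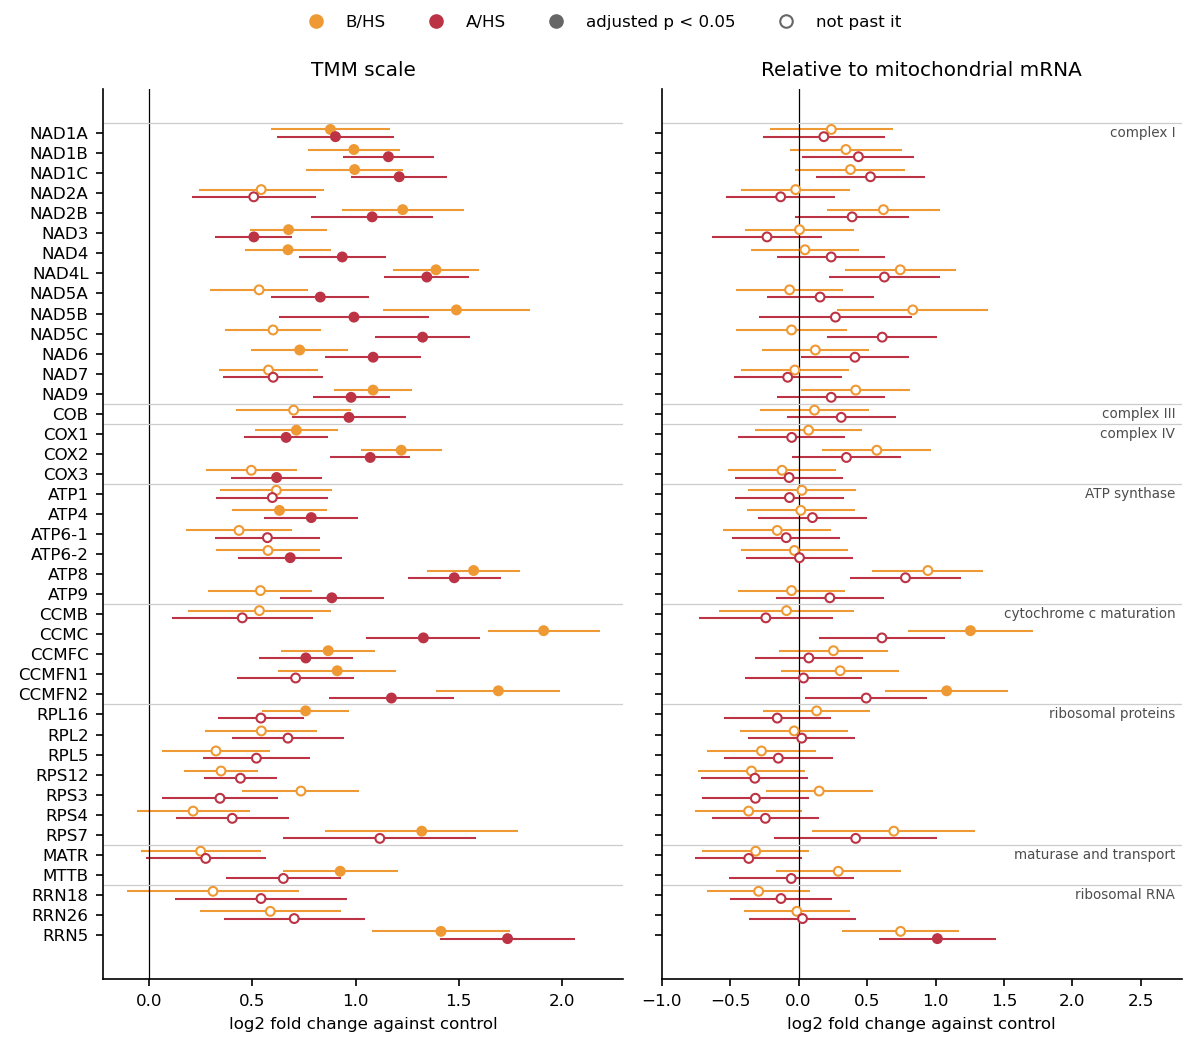
Log2 fold changes against control for the 38 coding and 3 rRNA rows, grouped by function, after B/HS and A/HS, with standard errors as bars. Filled points passed an adjusted p of 0.05. On the TMM scale (left) every point is above 0, and on the scale relative to mitochondrial mRNA (right) the points lie around 0 with *CCMC*, *CCMFN2* and *RRN5* filled.

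The larger changes within the mitochondrial pool were in the ORFs. Of the 63 other rows tested, 15 rose (4.60 % of all genes) and 3 fell (32.1 %) after B/HS. After A/HS, 3 rose (3.08 %) and 4 fell (32.2 %). Some rises are not separate, since ATMG00170 and ATMG00620 had the same counts, as had ATMG00430 and ATMG01150. All falls except that of ATMG00280 were in rows that passed the filter on low counts only through the controls. ATMG00120, ATMG01110 and ATMG01290, among the rises, passed it only through the heat libraries. ATMG00430, ATMG01150, ATMG00440, ATMG01140 and ATMG00940, which rose after B/HS, had under 10 counts in W1 and needed the heat libraries to pass. The numbers of rises therefore rest in part on rows let in by the libraries where they were high. Of the 14 rows with a mean of 1000 counts or more, none passed in either comparison, and their log2 fold changes ran from −0.74 to 0.07 after B/HS and from −0.71 to 0.24 after A/HS. The 34 rows with a mean of 100 to 1000 counts ran from −0.34 to 2.26 after B/HS. No range is given for the 56 rows under 100. Its ends were rows that passed the filter on low counts only through the controls or only through the heat libraries. The most counted of the other rows, ATMG00030, which was singled out after its values were seen, had 9916 and 7893 counts in controls, 7202 and 9554 after B/HS and 15877 and 14596 after A/HS. It did not pass the test, with −0.56 and 0.02.

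**Figure D4:**
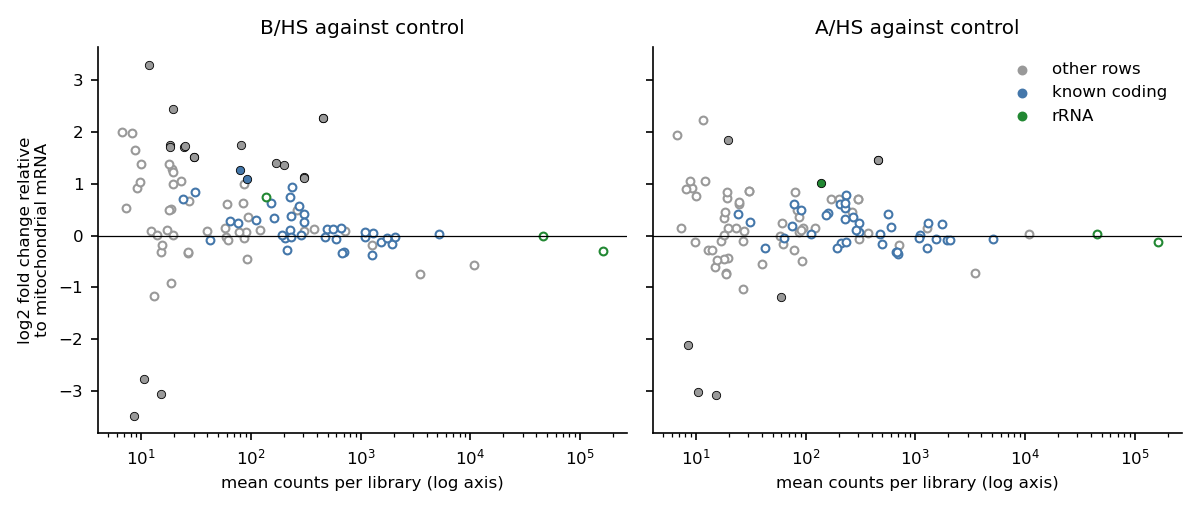
Log2 fold change relative to mitochondrial mRNA (y axis) against mean counts per library (x axis, log scale) for the 104 tested rows, after B/HS (left) and A/HS (right). Filled points passed an adjusted p of 0.05. Rows above 1000 counts stay between −0.74 and 0.24, and the filled points lie at lower counts.

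ATMG00620 and ATMG00170, the rows of ORF139, rose most among the rows with a mean of at least 50 counts. Both had 79 and 146 counts in controls, 801 and 686 after B/HS and 497 and 540 after A/HS. As a share of coding counts, this was 0.419 and 0.802 %, then 3.36 and 2.51 %, and then 1.49 and 1.85 %. The 3 conditions did not overlap. Relative to mitochondrial mRNA the log2 fold change was 2.26 after B/HS (SE 0.42, adjusted *P* = 1.3e-06 by edgeR) and 1.45 after A/HS (SE 0.41, adjusted *P* = 0.0024 by edgeR), which is 4.80-fold and 2.73-fold. On the TMM scale it was 2.97 and 2.22. The B/HS rise of ATMG00620 was called in all 13 alternatives, from 1.87 to 2.81, and the A/HS rise in 12, with adjusted *P* = 0.11 by edgeR when W6 was left out. AT2G07722, the nuclear gene with the copy, had 76 and 124, then 723 and 627, and then 427 and 467 counts, so the nuclear and mitochondrial origins of these reads cannot be told apart. No function of this ORF is annotated in the sources used here.

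The next rows by size of the rise after B/HS were ATMG00630, ATMG00670 and ATMG00370. As shares of coding counts, both B/HS libraries of each lay above both A/HS libraries, and the A/HS libraries lay above the controls. For ATMG00370 the last gap was small, with 167 of 33414 coding counts in W5 and 91 of 18215 in W2. ATMG00630 had 21 and 35, then 133 and 127, and then 80 and 89 counts. It had 1.75 after B/HS (SE 0.47, adjusted *P* = 0.0012 by edgeR). ATMG00670 had 62 and 75, then 226 and 276, and then 170 and 204 counts, a 2.64-fold rise after B/HS (SE 0.42 on the log2 scale, adjusted *P* = 0.0041 by edgeR). ATMG00370, annotated as a Ycf1 protein and matched to ORF199 (MT:42615-43214, minus strand), was singled out after its values were seen. It had 76 and 91, then 271 and 319, and then 167 and 286 counts, with 1.35 after B/HS (SE 0.41, adjusted *P* = 0.0052 by edgeR). AT2G07739, the nuclear gene annotated as best matching ATMG00370, equals mitochondrial DNA in 600 of 600 bases. It had 131 and 123, then 385 and 459, and then 234 and 441 counts. None of ATMG00630, ATMG00670 and ATMG00370 passed after A/HS, with 0.84, 0.70 and 0.71. Without W2, ATMG00630 had 1.28 and ATMG00670 had 0.87. The B/HS call ended for ATMG00630 without W3 (1.61), for ATMG00670 without W3 (1.45) or W4 (1.35), and for ATMG00370 without W3 (1.37) or W4 (1.33). At lower counts, ATMG00120 and ATMG01110 were also singled out after their values were seen, the latter annotated as a mitovirus RNA-dependent RNA polymerase. ATMG00120 had 0 and 3, then 30 and 12, and then 13 and 12 counts. ATMG01110 had 3 and 5, then 35 and 25, and then 21 and 28 counts. Both rows passed the filter on low counts only through the heat libraries, so no test is given for them.

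The falls were few. ATMG00280, annotated with the catalytic domain of the Rubisco large chain, had 62 and 52 counts in controls, 61 and 95 after B/HS and 51 and 34 after A/HS. ATMG00280 fell after A/HS by 1.18 on the log2 scale relative to mitochondrial mRNA (SE 0.46, adjusted *P* = 0.034 by edgeR), a call that was lost in 6 of 13 alternatives, among them leaving out any 1 of W3 to W6 (−1.01 to −1.39). AT2G07732, the nuclear gene annotated as best matching it, equals mitochondrial DNA in 350 of 351 bases. It had 95 and 77, then 93 and 86, and then 64 and 43 counts. The sequence was not compared with the chloroplast genome. ATMG00340, ATMG00350 and ATMG00790, named after their values were seen because they were the only falls after B/HS, were counted at low levels. ATMG00340 had 32 and 35 counts in controls, 4 and 7 after B/HS and 4 and 9 after A/HS. ATMG00350 had 16 and 18, then 2 and 2, and then 5 and 8, and ATMG00790 had 19 and 26, then 3 and 6, and then 2 and 7. None of the 3 had 10 counts in any heat library. They passed the filter on low counts only through the controls, so no fold change is given for them, and what they encode is not annotated in the sources used here.

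**Figure D5:**
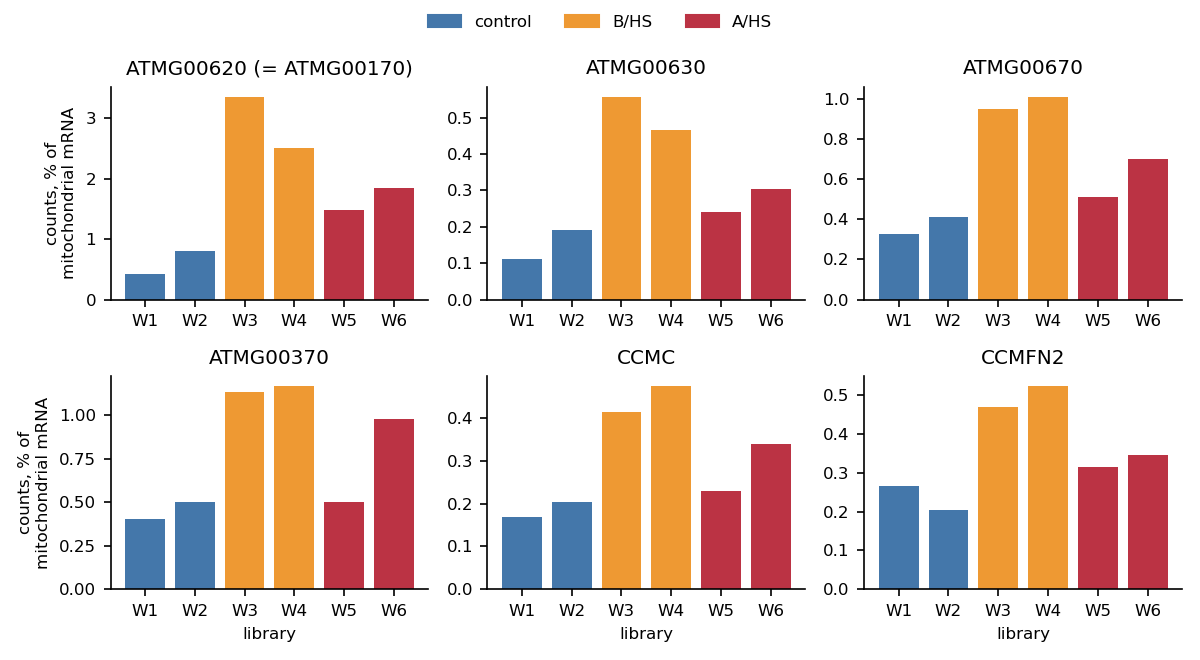
Counts of 6 rows as a percentage of the coding counts of each library (y axes from 0, differing between panels), coloured by condition. ATMG00620 runs from 0.419 % in W1 to 3.36 % in W3, and in each panel the B/HS bars are the highest.

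A/HS was also set against B/HS directly. On the TMM scale 1 mitochondrial row was higher after A/HS, against 6.25 % of all genes, and 4 were lower, against 7.63 %. The higher row was *NAD5C* (ATMG00060), a piece of the trans-spliced *nad5* transcript, with 157 and 178 counts after B/HS and 268 and 371 after A/HS (log2 fold change 0.72, SE 0.22, adjusted *P* = 0.047 by edgeR). That call was lost in 6 of 13 alternatives, among them DESeq2 and leaving out W1, W3, W4 or W6, and its log2 fold change ran from 0.40 without W6 to 0.98 without W5. The other pieces of *nad5* did not pass, with 0.30 for *NAD5A* and −0.50 for *NAD5B*. ATMG00170, ATMG00620, ATMG00630 and ATMG00280 were lower, with log2 fold changes of −0.75, −0.75, −0.84 and −1.08. Relative to mitochondrial mRNA no row passed in edgeR or in DESeq2, against 1.35 % of all genes higher and 1.74 % lower in edgeR. With either control library left out, 4 rows were lower. At an unadjusted *P*-value under 0.05 there were 10 rows in edgeR and 7 in DESeq2.

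Nuclear genes for the same complexes were counted from lists of their subunits on the TMM scale. Of 49 genes in 5 lists, 21 rose after B/HS and 22 after A/HS, none fell, and the medians were 0.45 and 0.53. Over all genes tested, 20.0 % and 18.3 % rose and 19.7 % and 17.6 % fell. The mitochondrial coding genes had 21 and 23 of 38 with medians of 0.71 and 0.77. In complex III and cytochrome *c*, 8 of 13 rose after B/HS and 7 of 13 after A/HS, led by *QCR7-2* (AT5G25450), a small subunit of complex III. *QCR7-2* had 145 and 478 counts in controls, 3885 and 3480 after B/HS and 1711 and 2510 after A/HS, with log2 fold changes of 3.89 (SE 0.35) and 2.87 (SE 0.33). *CYTC-2* (AT4G10040), which encodes a cytochrome *c*, a protein to which the maturation system attaches haem, had 209 and 468, then 1801 and 1766, and then 1021 and 1368 counts, with 2.67 (SE 0.25) and 1.88 (SE 0.24). In complex II, which in *A. thaliana* is encoded wholly in the nucleus, 3 and 4 of 5 rose, among them *SDH2-1* (AT3G27380) with 1.63 and 1.48. Complex I had 4 and 6 rises of 14, complex IV 2 and 1 of 7, and ATP synthase 4 and 4 of 10. With lists this short, the complex IV counts and the B/HS count of complex I were near the share over all genes.

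Over 4 lists for the making and upkeep of mitochondrial RNA and DNA, 7 of 26 tested genes rose after B/HS and 10 of 26 after A/HS, where 20.0 % and 18.3 % of all genes did. With lists this short, the B/HS count was near the share over all genes. *RPOTMP* (AT5G15700), 1 of 2 RNA polymerases listed, rose by 1.24 and 0.87 (SE 0.27 for each), and *RPOTM* did not pass (0.29 and 0.25). Of 16 factors of RNA decay and splicing, 14 were tested. *PNP-MT* (AT5G14580), the polynucleotide phosphorylase that degrades mitochondrial RNA from its 3′ end, was the only one to rise after B/HS, with 32 and 38 counts in controls, 79 and 75 after B/HS and 79 and 62 after A/HS (log2 fold changes 1.33 and 0.98). After A/HS 4 of the 14 rose, *NMAT2* among them (1.33). *MORF1* (AT4G20020), an RNA editing factor, rose by 1.80 and 1.87, and 2 of the 3 listed members of its family rose in each comparison. Of 7 genes of DNA maintenance, 3 rose in each comparison, and *RECA3* fell after B/HS by 1.18 on the log2 scale. It was the only fall among the 26 genes after B/HS, where 19.7 % of all genes fell.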

How the data were processed

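RNA-seq counts of the *A. thaliana* libraries were used. Per the labels, whole-transcriptome amplification and Nextera XT were used, whereas the Methods name TruSeq. The authors trimmed reads with fastx toolkit, aligned them to TAIR10 with TopHat (1.4.1, submitters' processing notes) and deposited raw counts per gene. The counting program, strand and handling of reads with several matches are not given in the sources used here. Reference sequences are RefSeq TAIR10.1, whose mitochondrial sequence may differ from that aligned to, and were compared by BLAST 2.17.0+.

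Counts were fitted on all 6 libraries with edgeR 4.0.16 (filterByExpr, TMM, glmQLFit, glmQLFTest) in R 4.3.3, with Benjamini–Hochberg adjustment over 17669 genes, and again with library sizes set to the 38 coding rows. A standard error is the absolute log2 fold change over the square root of F. DESeq2 1.42.0 was an alternative. The procedure was tested on simulated data. Replicates differed beyond sampling noise (chi-square per degree of freedom 8.44 to 35.0 over all genes). Besides the listed genes, other rows with a mean of at least 50 counts were named by the 4 largest rises and falls past the test on the second scale, and nuclear genes by up to 3 per list with the smallest adjusted p. The members and lists were chosen with earlier results of these data known. The *B. depauperata* counts were not used here.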

Additional observations from a re-analysis of the deposited data

How the results depend on the processing

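The share of counts on mitochondrial rows was 1.18 times the control after B/HS and 1.52 times after A/HS. Against nuclear plus mitochondrial counts these became 0.900 and 1.18, without organelle rRNA rows 0.988 and 1.32, and without those and the ENSRNA rows (chosen after seeing the data) 0.963 and 1.29. The B/HS share therefore changed direction with the denominator. Leaving out 1 library gave 1.12 to 1.24 for B/HS, 1.43 to 1.62 for A/HS and 1.21 to 1.37 for A/HS over B/HS.

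On the TMM scale, leaving out 1 library gave 26 to 74 rises after B/HS, 21 to 56 after A/HS and 0 to 2 in A/HS against B/HS, where DESeq2 and RLE factors gave 0. The other settings, including scaling from nuclear genes alone, moved the B/HS and A/HS numbers by less than 1.5 times. Relative to mitochondrial mRNA, rises after B/HS were 8 with at least 10 counts in every library and 11 with only the 4 libraries compared, and 2 to 21 with 1 library left out. Rises after A/HS were 2 with all rows other than rRNA as denominator, with at least 10 counts in every library, with DESeq2 and with only the 4 libraries compared, and 0 to 9 with 1 library left out. The cause was not tested, apart from the fewer genes or libraries that these settings use. Transfer RNA rows are not marked in the sources used here and stayed in that denominator. In A/HS against B/HS the relative scale gave no rise in any setting, and 4 to 5 falls without W1, without W2 or with only the 4 libraries compared. No paired analysis was possible because the labels give no replicate numbers. With 1 library left out, the lone library of a condition was assumed to vary like the others. Rows under about 10 counts, short reads of identical copies and 2 libraries per condition limit what these counts can show.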
